A study of Mus musculus with 4 samples.

Results

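The 10 transcription factors that mark or maintain T-lineage identity (Tcf7, Lef1, Bcl11b, Sox4, Satb1, Ikzf1, Ikzf3, Ets1, Bach2 and Myb) were followed through thymocyte development in control and Tox4 conditional knockout (cKO) mice. They were chosen by name, and all 10 were found by symbol among the 32285 genes of the 4 single-cell matrices. Control mice carried floxed Tox4 alleles on both chromosomes (Tox4;F/F). The cKO mice (Tox4;F/F;Lck+) also carried Lck-Cre, a recombinase driven by the proximal promoter of the T cell kinase gene Lck, which deletes Tox4 exons 4 to 6 from the DN3 stage onward, so that part of the DN cells precede the deletion. Per the study's methods the mice were sex-matched littermates of C57BL/6 background, 6 to 8 weeks old. Each genotype had 2 libraries, 1 mouse each, which are numbered here as in their labels (control 1 and 2, cKO 1 and 2).

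These factors act in layers. TCF-1 (the product of Tcf7) is switched on by Notch signals in the earliest thymic progenitors and opens chromatin at T cell genes. Its relative LEF-1 shares the same HMG-box DNA-binding domain and works with it at the double-positive (DP) stage and in the choice of the CD4 fate. Bcl11b, a zinc-finger repressor, closes off other lineages at commitment. Ikaros (Ikzf1) and Aiolos (Ikzf3) are zinc-finger proteins that recruit chromatin remodelling complexes, and c-Myb and Satb1 support DP cells, Satb1 as an organizer of chromatin loops. Ets1 is needed for survival and for αβ lineage progression, Sox4 is another HMG-box factor of early thymocytes, and Bach2 is a repressor that holds back effector genes in mature T cells.

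The 4 matrices held 57354 cells, between 42716798 and 62007453 unique molecular identifiers (UMIs, counts of captured transcript molecules) per library, and 33414 cells were kept. Their clusters gave 6 αβ stages, named from markers as DN-like (double negative, 642 cells), DPbla-like (DP blasts, 3547), DPre-like (DP cells undergoing rearrangement, 15174), DPsel-like (DP cells under selection, 4262), CD4SP-like (1673) and CD8SP-like (878), together 78.3% of kept cells, and 4 clusters (17.4%) stayed unnamed. None of the 10 factors was used for clustering. The markers were highest in their own stage for 4 of 7 genes in DN, all 8 in DPbla, all 7 in DPre, all 6 in DPsel, 3 of 6 in CD4SP and 3 of 7 in CD8SP. Cd4 and Cd8b1 were highest in DPre, and the DPbla clusters were named from cell-cycle genes, so cycling cells of neighbouring stages could not be separated from them. Cells over the mitochondrial limit of 10% were more frequent in both libraries numbered 1 (46.1% and 48.3%) than in both numbered 2 (20.6% and 23.1%). Pairs of libraries shared 36 to 70 cell barcodes. Tox4 itself was between 41.8 and 94.5 CPM (UMIs per 1000000) over all stages and libraries and passed the test in no stage. It was lower in both cKO libraries in DPre (65.1 and 68.4 CPM in control, 55.7 and 55.7 CPM in cKO, adjusted p = 0.278, edgeR) and in DPsel (79.8 and 77.3 against 65.2 and 64.8 CPM, adjusted p = 0.539, edgeR), and overlapped in the other stages. A 3′ kit reads transcripts near their end, which lies in exon 10, outside the deleted exons 4 to 6. The matrices give no read positions, so Tox4 counts were not taken as a check of the deletion.

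Levels are given as CPM, the share of a stage's UMIs that a gene took in a library after TMM scaling across the 24 stage sums (6 stages in 4 libraries). They are a share of each stage's RNA and not an amount per cell: the median DPbla cell had 8750 UMIs and the median DPre cell 2607. Levels of single clusters and summed levels of marker lists are plain CPM without TMM scaling, so they are not on the scale of the stage levels. Comparisons between stages are descriptions over the 4 libraries without a test, since the stages were cut from the same cells. All 10 factors had a highest stage whose 4 libraries lay above all 4 of their lowest stage, as did 88.5% of the 11105 genes measured. The factors spanned a median log2 range of 2.13 over the 6 stages, against 1.14 for all genes, from 1.39 for Ikzf1 to 5.67 for Bach2, whose lowest stage was at background. Of the 10 factors, 5 were higher in DPsel than in DPre in every library (Lef1, Satb1, Ikzf1, Ets1 and Bach2), as were 37.5% of all genes, and 4 were lower in every library (Tcf7, Bcl11b, Sox4 and Myb), as were 32.8% of all genes. Satb1 was higher only narrowly, with 2943 CPM in DPre and 2948 CPM in DPsel in control 1, and 4 factors were higher with DESeq2 size factors, without control 2 or without cKO 2.

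**Figure D1:**
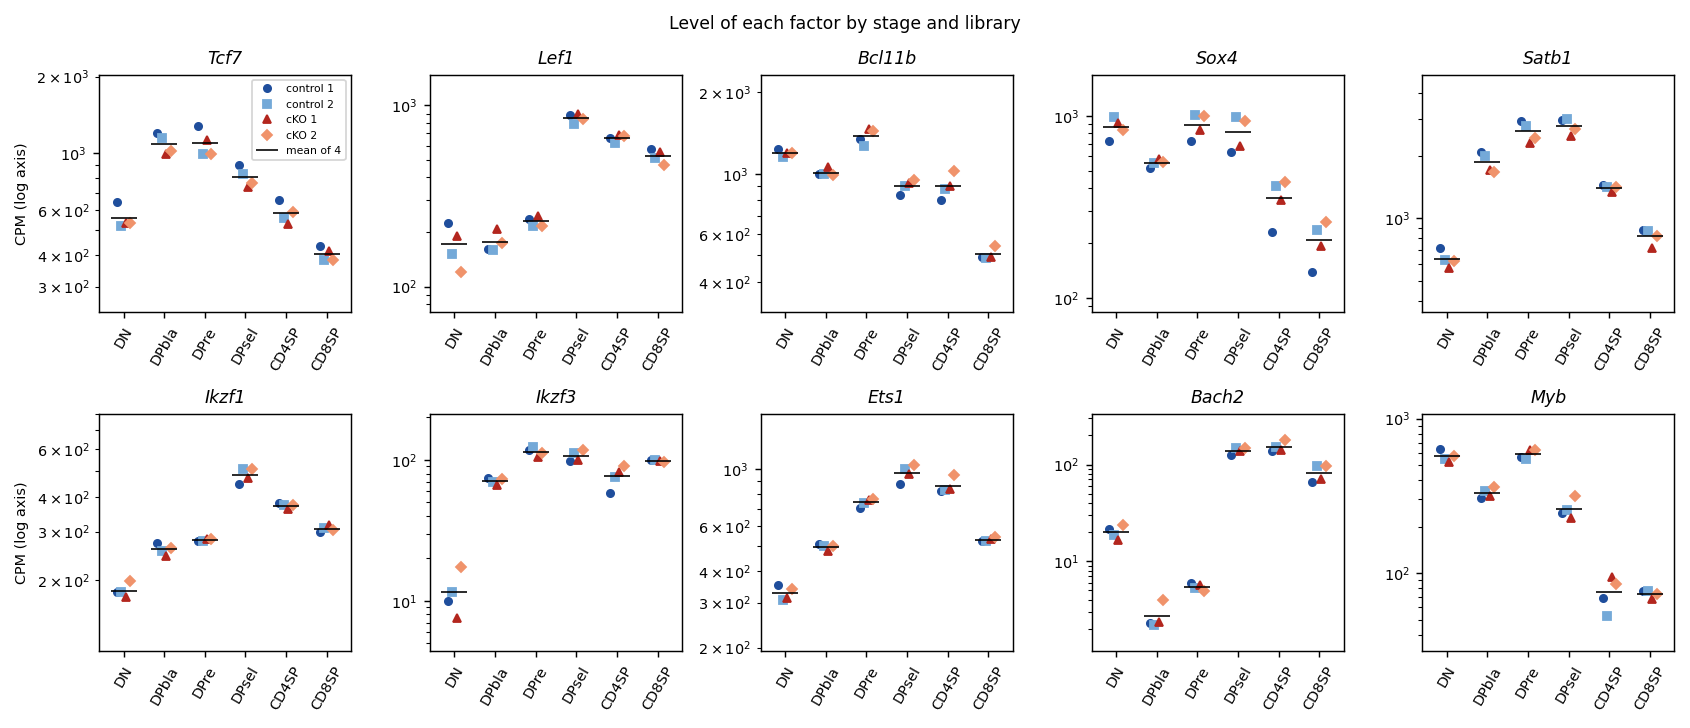
Level of each factor (CPM, log axis) in the 6 stages, with 1 point per library and a bar at the mean of the 4 libraries. Bach2 and Lef1 step up between DPre and DPsel, Myb and Sox4 are low in the SP stages, and the points of both genotypes lie close together within a stage.

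Bach2 had the widest range. Its gene (ENSMUSG00000040270) lies on chromosome 4 from 32238804 to 32586108, plus strand (GRCm38, GENCODE M21 annotation, as for all genes below). In DPre it was at 5.98 and 5.24 CPM in control 1 and 2 and at 5.67 and 4.87 CPM in cKO 1 and 2. In DPsel it was at 126, 147, 137 and 147 CPM in the same order. The DPsel level was between 21.1 and 30.3 times the DPre level of the same library, a mean log2 ratio of 4.68, which was 3.95 at a mitochondrial limit of 5%. CD4SP cells (139 to 179 CPM) overlapped with DPsel, whereas CD8SP cells were lower (66.6 to 96.4 CPM). DN cells had 16.5 to 23.7 CPM from only 15 to 61 UMIs per library, and DPbla cells 2.18 to 3.93 CPM. When every cell was thinned to 1000 UMIs, 0.935% of DN cells, 0.368% of DPbla cells and 0.546% of DPre cells had a Bach2 UMI, against 0.855% of cells in the mononuclear phagocyte (MPS-like) clusters, so for DPbla and DPre these shares are at background, and the ratio of DPsel over DPre is not exact. The thinned DN share rests on few cells (exact binomial 95% interval 0.344% to 2.02%), and without thinning 14.3% of DN cells against 2.03% of DPbla cells of similar depth held a Bach2 UMI. In DPsel the thinned share was 12.5%, and in B cells, which use Bach2 themselves, 4.07%.

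Lef1 (ENSMUSG00000027985, chromosome 3 from 131110471 to 131224356, plus strand, 12 exons) showed the same step on a higher floor. DPre cells had 235, 217, 246 and 217 CPM in control 1, control 2, cKO 1 and cKO 2. DPsel cells had 880, 793, 892 and 844 CPM, 3.62 to 3.90 times the DPre level of the same library. All DPsel libraries lay above all CD4SP libraries (621 to 688 CPM), and these above all CD8SP libraries (470 to 571 CPM). Counted per cell, the order of the SP stages was the other way round in every library, with means of 3.91 UMIs in CD8SP and 3.26 in CD4SP. DPbla (159 to 209 CPM) and DN (120 to 225 CPM) overlapped with each other. Cells with a Lef1 UMI at 1000 UMIs made up 14.6% of DN cells and 16.2% of DPbla cells, neither above the 14.9% of MPS-like cells beyond the binomial intervals.

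The promoter windows of these 2 genes are shown because they had the largest steps up between DPre and DPsel. The windows are RefSeq's (GRCm38.p6, 250 bases before to 50 bases after an annotated start, 5′ to 3′ along the gene), and 8 of the 10 factors had at least 1. Capitals mark matches on either strand to the letters of 6 motifs. The TCF/LEF motif was searched as CTTTGA and the SOX motif as AACAAT. The ETS motif was searched as CCGGAA and the Ikaros motif as TGGGAA. The BACH motif was searched as TGAGTCA. The MYB motif was searched in 4 forms, with CAACGG as the first and CAACTG as the next, then TAACGG, and last TAACTG. The Bach2 window (chr4:32417185-32417484, plus strand) starts inside the GENCODE gene, at a later start site. Lef1 has 4 windows, of which the first (chr3:131110047-131110346) and the fourth, at an internal start (chr3:131156044-131156343), are given.
Bach2: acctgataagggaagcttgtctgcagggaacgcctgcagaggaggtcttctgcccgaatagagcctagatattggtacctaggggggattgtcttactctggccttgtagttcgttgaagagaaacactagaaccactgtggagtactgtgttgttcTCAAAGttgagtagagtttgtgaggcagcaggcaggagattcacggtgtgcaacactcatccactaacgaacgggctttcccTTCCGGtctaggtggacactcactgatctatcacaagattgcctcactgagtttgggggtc
Lef1, first start: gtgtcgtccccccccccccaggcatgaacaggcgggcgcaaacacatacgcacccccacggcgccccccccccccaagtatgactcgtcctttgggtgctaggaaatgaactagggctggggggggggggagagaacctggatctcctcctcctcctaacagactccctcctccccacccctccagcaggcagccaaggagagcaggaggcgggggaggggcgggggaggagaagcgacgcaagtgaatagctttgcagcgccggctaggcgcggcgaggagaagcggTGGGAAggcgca
Lef1, internal start: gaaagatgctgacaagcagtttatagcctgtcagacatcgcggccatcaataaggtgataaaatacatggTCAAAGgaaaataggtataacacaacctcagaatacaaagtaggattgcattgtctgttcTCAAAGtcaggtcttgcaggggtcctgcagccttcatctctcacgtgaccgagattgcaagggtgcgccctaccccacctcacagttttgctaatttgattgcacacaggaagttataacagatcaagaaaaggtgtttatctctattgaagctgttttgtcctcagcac
The Bach2 window held 1 TCF/LEF and 1 ETS match, the first Lef1 window 1 Ikaros match and the internal Lef1 window 2 TCF/LEF matches. Of all 32851 promoter windows, 16.0% held the TCF/LEF letters, 14.9% the ETS, 25.6% the Ikaros, 28.3% the MYB, 10.7% the SOX and 5.20% the BACH letters. The 8 factors had 17 windows, some of them overlapping, of which 3 held a TCF/LEF, 2 an ETS, 6 an Ikaros and 3 a MYB match. No window of any factor held the SOX or BACH letters. A match describes the sequence and is not evidence of binding.

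Tcf7 (ENSMUSG00000000782, chromosome 11 from 52252371 to 52283014, minus strand, 10 exons) had another course than its relative Lef1. It was lowest in CD8SP (380 to 434 CPM) and DN cells had 643, 518, 535 and 533 CPM in control 1, control 2, cKO 1 and cKO 2. DPbla cells had 1206, 1148, 990 and 1026 CPM, 1.85 to 2.22 times the DN level of the same library. DPbla and DPre (992 to 1279 CPM) overlapped. DPsel cells (741 to 898 CPM) were below both, CD4SP cells (527 to 654 CPM) were below DPsel, and CD4SP overlapped with DN. Over the 24 stage sums Tcf7 and Lef1 had a Pearson r of -0.35 (log2 CPM, a description, since the sums share libraries and stages).

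Sox4 (ENSMUSG00000076431, chromosome 13 from 28948919 to 28953713, minus strand) is a gene of 1 exon and belongs to the SOX branch of the HMG-box factors. DN (729 to 990 CPM), DPre (726 to 1015 CPM) and DPsel (629 to 990 CPM) overlapped, with a dip in DPbla (516 to 580 CPM). CD4SP cells had 230, 412, 343 and 432 CPM and CD8SP cells 139, 236, 193 and 263 CPM in control 1, control 2, cKO 1 and cKO 2. In DPre, DPsel, CD4SP and CD8SP both libraries numbered 1 were below both libraries numbered 2, whatever the genotype, which is also the split in mitochondrial share. The part of that split in the Sox4 values was not tested. The order of the SP stages turned with a mitochondrial limit of 5%, where CD4SP fell below CD8SP by 0.18 on the log2 scale instead of lying 0.77 above it. With UMI outliers kept CD4SP lay 1.56 above CD8SP.

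Bcl11b (ENSMUSG00000048251, chromosome 12 from 107910403 to 108003602, minus strand, 4 exons) was present from the DN stage on. DPre cells had the highest level, with 1348, 1263, 1465 and 1437 CPM in control 1, control 2, cKO 1 and cKO 2. DN cells had 1157 to 1231 CPM, DPbla cells 991 to 1056 CPM and DPsel cells 838 to 947 CPM, with no overlap between these stages in that order. CD4SP (801 to 1023 CPM) overlapped with DPsel. CD8SP cells had 493, 490, 494 and 541 CPM, and CD4SP was 1.62 to 1.89 times CD8SP within each library. Counted per cell, DN cells had the most Bcl11b, with 9.94 to 12.0 UMIs per cell against 4.04 to 5.21 in DPre, so the DPre maximum holds for the share of RNA and not for the number of transcripts captured per cell. For other factors, too, the stage order per cell was not that of CPM. Mean UMIs per cell of Satb1 were highest in DPbla (16.4, against 8.89 in DPre and 13.8 in DPsel), those of Tcf7 also in DPbla (9.61, against 3.76 in DPre), and those of Sox4 in DN (8.26, against 2.99 in DPre). Myb had 4.77 to 6.17 UMIs per cell in DN, 2.80 to 3.03 in DPbla and 1.76 to 2.22 in DPre.

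Satb1 (ENSMUSG00000023927, chromosome 17 from 51736187 to 51833290, minus strand, 11 exons) was lowest in DN and highest in the later DP stages. DN cells had 722, 631, 576 and 620 CPM in control 1, control 2, cKO 1 and cKO 2, and DPbla cells 2069, 1987, 1713 and 1658 CPM. The DPbla level was 2.67 to 3.15 times the DN level. DPre (2287 to 2943 CPM) and DPsel (2476 to 3010 CPM) overlapped, and CD4SP (1333 to 1451 CPM) lay above CD8SP (716 to 877 CPM) in every library. At 1000 UMIs per cell 94.1% of DPre cells held a Satb1 UMI. DN cells, with 42.2%, did not exceed MPS-like (58.6%), B (32.5%) or erythroid cells (33.8%) beyond counting error. Without thinning it was 94.2% of DN cells (median 8606 UMIs), 56.8% of erythroid cells (4159 UMIs) and 51.5% of MPS-like cells (1056 UMIs). Bcl11b UMIs were found in 37.3% of MPS-like cells, so those droplets held RNA of T-lineage genes too.

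Ikzf1 and Ikzf3 belong to the Ikaros family. Ikzf1 (ENSMUSG00000018654, chromosome 11 from 11685003 to 11772926, plus strand, 8 exons) was lowest in DN (174 to 199 CPM) and varied least over the stages. It was at 277 to 281 CPM in DPre and at 445, 508, 468 and 508 CPM in DPsel, 1.60 to 1.84 times the DPre level. CD4SP (361 to 381 CPM) lay below DPsel and above CD8SP (298 to 316 CPM). Counted per cell, CD8SP was above CD4SP in every library (means of 2.26 and 1.84 UMIs of Ikzf1). The lowest mean per cell was that of DPre (0.944), against 1.74 in DN. Ikzf3 (ENSMUSG00000018168, chromosome 11 from 98464902 to 98546031, minus strand, 8 exons) was also lowest in DN cells, with 9.98, 11.5, 7.55 and 17.5 CPM from 7 to 45 UMIs per library. DPbla cells had 74.9, 69.5, 66.4 and 73.1 CPM, all above the DN libraries. DPre (105 to 123 CPM), DPsel (98.5 to 117 CPM) and CD8SP (96.2 to 99.9 CPM) followed one another with overlap between neighbours. The share of DN cells with an Ikzf3 UMI at 1000 UMIs per cell was 1.4%, against 3.25% of MPS-like cells and 0% of 80 erythroid cells (exact binomial 95% upper bound 4.51%). Without thinning it was 8.88% of DN cells (median 8606 UMIs), 5.97% of MPS-like cells (1056 UMIs) and 0% of 95 erythroid cells (4159 UMIs). The part of free RNA in these DN counts was not tested. For Ikzf1 the thinned DN share was 16.8%, not above the 18.5% of MPS-like and 14.6% of B cells beyond the intervals but above the 5% of erythroid cells.

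Ets1 (ENSMUSG00000032035, chromosome 9 from 32636221 to 32757820, plus strand, 8 exons) took a higher share of RNA at each step up to DPsel. DN cells had 308 to 351 CPM, DPbla 477 to 510 CPM, DPre 706 to 765 CPM and DPsel 876 to 1035 CPM, with no overlap between these stages. Counted per cell, Ets1 was lower in DPre (2.15 to 2.73 UMIs) than in DPbla (3.92 to 4.68 UMIs) in every library. CD4SP (822 to 948 CPM) overlapped with DPsel. CD8SP cells had 521, 525, 532 and 541 CPM, and CD4SP was 1.57 to 1.75 times CD8SP within each library.

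Myb (ENSMUSG00000019982, chromosome 10 from 21124935 to 21160984, minus strand, 16 exons) had its highest stage means in DPre and DN. DN (527 to 633 CPM) and DPre cells (568, 546, 629 and 626 CPM in control 1, control 2, cKO 1 and cKO 2) overlapped, and DPbla cells were lower, at 305 to 363 CPM. DPsel cells had 247, 255, 228 and 314 CPM, and CD4SP and CD8SP cells 53.0 to 95 and 68.3 to 77.0 CPM. The SP stages overlapped with each other and lay below DPsel. At a mitochondrial limit of 5% they were not alike: the log2 ratio of CD4SP over CD8SP was -1.07, and that over DPsel was -2.32 for CD4SP and -1.26 for CD8SP. At 1000 UMIs per cell 6.31% of CD4SP and 5.35% of CD8SP cells held a Myb UMI, against 8.75% of erythroid and 21.5% of MPS-like cells. The thinned SP shares are thus at background, and ratios to the SP levels are not exact. Without thinning it was 23.6% of CD4SP and 31.3% of CD8SP cells (medians of 5173 and 7898 UMIs). The unthinned shares of erythroid and MPS-like cells were 17.9% and 24.1% (4159 and 1056 UMIs).

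The 3 clusters within DPsel differed in these factors. Cluster 9 was led by Cd5, Egr1 and Nr4a1, genes of recent T cell receptor signalling, cluster 17 by Xcl1, Tnfrsf9 and Nr4a1, and cluster 3, which held 55.7% to 63.5% of DPsel cells, by Itm2a, Il7r and Bcl2. Cluster 3 also had Cd40lg, a CD4SP marker, among its top 10 genes, and Cd40lg was higher in DPsel (54.2 CPM) than in CD4SP (32.3 CPM). In plain CPM, Myb had a mean of 859 CPM in cluster 9, 238 CPM in cluster 17 and 102 CPM in cluster 3. In cluster 9 the 4 libraries had 757 to 1005 CPM of Myb and in cluster 3 80.0 to 121 CPM, so the DPsel mean of Myb averages over unlike cells. Bach2 was lowest in cluster 9, with means of 50.4, 174 and 171 CPM in clusters 9, 17 and 3, so its DPsel mean also averages over unlike cells. Ikzf1 (906, 429 and 410 CPM), Ikzf3 (223, 162 and 63.1 CPM), Tcf7 (1399, 573 and 766 CPM) and Sox4 (1328, 897 and 692 CPM) were also highest in cluster 9. Satb1 was at 3141 and 3397 CPM in clusters 9 and 3 but at 1209 CPM in cluster 17, and Bcl11b at 426 CPM in cluster 17 against 812 and 1159 CPM in the others. Every Satb1 value of cluster 17 (981 to 1324 CPM) was below every value of clusters 9 and 3. Cluster values are descriptions, since the other genes of the same cells set the clusters.

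**Figure D2:**
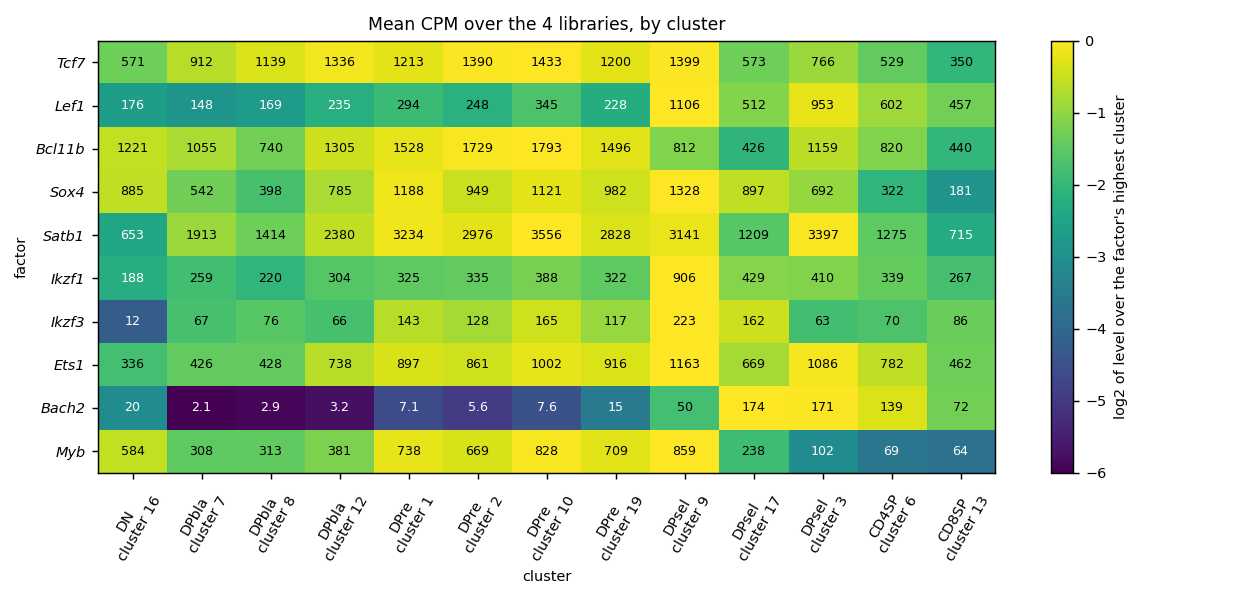
Mean plain CPM (no TMM scaling) over the 4 libraries of each factor (rows) in the 13 clusters of the 6 stages (columns), with color for the log2 level relative to the factor's highest cluster. Among the 3 DPsel clusters, Myb is at 859 CPM in cluster 9 and 102 CPM in cluster 3 while Bach2 is at 50.4 and 171 CPM, and Satb1 is at 1209 CPM in cluster 17.

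The 3 DPbla clusters also differed. Cluster 12, led by the G2 and mitosis genes Cenpf, Cdc20 and Ccnb2, had 1336 plain CPM of Tcf7, 1305 CPM of Bcl11b, 785 CPM of Sox4, 2380 CPM of Satb1 and 738 CPM of Ets1. Cluster 8, led by the replication genes Hells, Cdc6 and Ccne2, had 1139, 740, 398, 1414 and 428 CPM of the same genes. Cluster 7, led by Mki67, Top2a and Prc1, had 912, 1055, 542, 1913 and 426 CPM of them. All 4 libraries of cluster 12 were above all 4 of cluster 8 for Bcl11b, Sox4, Satb1 and Ets1, but not for Tcf7. Cluster 12 held a larger part of DPbla in control 1 and 2 (36.4% and 27.6%) than in cKO 1 and 2 (24% and 23.8%). For cluster 8 the parts were 26.9% and 30.3% in control libraries, and 36.9% and 38.8% in cKO.

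Detection in single cells was compared with that in other lineages. Over the 60 pairs of factor and stage, the share at 1000 UMIs per cell exceeded that of erythroid cells, a lineage outside the T cells, beyond both exact binomial 95% intervals in 50 pairs. The other 10 were Bach2 in DN, DPbla and DPre, Myb in CD4SP and CD8SP, Satb1 in DN and CD8SP, and Lef1 in DN, Sox4 in CD8SP and Ikzf3 in DN. Against MPS-like cells, 585 of which reached the depth, 38 pairs were above. Those not above were the same 10 and a further 12, namely Tcf7 in DN, CD4SP and CD8SP, Ikzf1 in DN, DPbla and CD8SP, Ets1 in DN and CD8SP, Lef1 in DPbla, Bcl11b in CD8SP, Sox4 in CD4SP and Myb in DPsel. The intervals cover counting error only. Without thinning, the depth of the cells moved the shares: 67.9% of DPbla and 47.2% of DPre cells had a Lef1 UMI, but at 1000 UMIs per cell it was 16.2% and 22.9%.

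**Figure D3:**
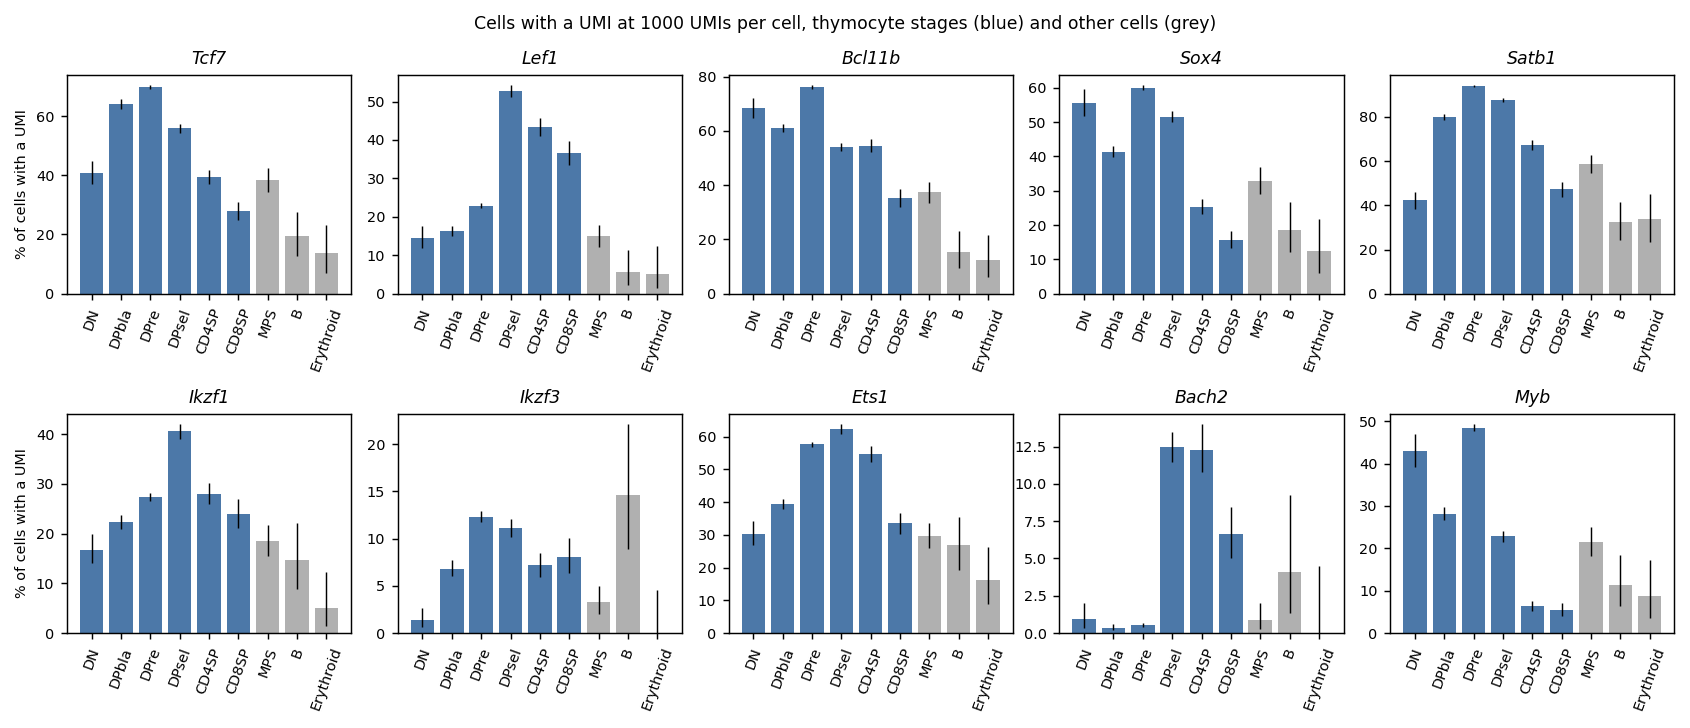
Percent of cells with at least 1 UMI of each factor after thinning to 1000 UMIs per cell, in the 6 stages (blue) and in MPS-like, B and erythroid cells (grey), with exact binomial 95% intervals over the cells of all 4 libraries. Bach2 is at 0.368% to 0.935% in DN, DPbla and DPre and at 12.5% in DPsel, and Satb1 reaches 94.1% in DPre.

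The genes most like each factor were those with the highest Pearson r of log2 CPM over the 24 stage sums, among 11105 genes. For Bach2 these were Galnt6, Gpr174 and Nfkb1 (all r = 0.98), and for Lef1 B630019A10Rik (0.98), Cytip and Cd40lg (both 0.97), the last encoding the CD40 ligand of helper T cells. For Ets1 they were Cd28 and Rasgrp1, a costimulatory receptor and an activator of Ras signalling (both 0.95), and Cd84 (0.93), and for Ikzf1 Lrp10 (0.97), Rspry1 and Cd6 (both 0.95). Myb was most like Ptprf, Plxdc2 and Kansl1l (all 0.96), Tcf7 like Colq (0.95), Sh2d1a and H2-Q2 (both 0.94), and Satb1 like Mcu (0.94), Trim24 and Jup (both 0.93). Ikzf3 was most like Nfkbia (0.95), Elf1 and Zfp653 (both 0.93). Bcl11b was most like Ralgps2, Dapk1 (both 0.95) and Snrnp70 (0.91), and Sox4 like Dapk1 (0.92), Pcnx (0.90) and Gnai3 (0.89). Within the factors, Ikzf1 and Ets1 had the highest r (0.92), followed by Lef1 with Bach2 and with Ikzf1 (both 0.87), while Myb and Bach2 were at -0.69. The sums share libraries, depth and stages, so these values describe the profiles only.

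To identify factors that differed upon Tox4 loss, the sums of control and cKO libraries were compared within each stage. None of the 10 factors was called in any of the 6 stages by edgeR's quasi-likelihood test at an adjusted p of 0.05 over all genes tested, and none by DESeq2. All 10 passed the filter on low counts in every stage. The same edgeR fits called 0.0114% of all genes tested in DN, 2.65% in DPbla and 1.34% in DPre. Of the genes tested in DPsel 0.171% were called, in CD4SP 0.370% and in CD8SP 0%. At an unadjusted p under 0.05 there were 2 factors in DPbla (Satb1 and Lef1), 1 in DPre (Satb1), 2 in DPsel (Satb1 and Tcf7), 2 in CD4SP (Myb and Ikzf3) and 0 in DN and CD8SP. Of all genes, 16.0%, 14.6%, 8.71% and 7.77% were under that value in the first 4 of these stages, and 7.26% and 6.85% in DN and CD8SP. The median log2 fold change (cKO over control) of the factors was between -0.03 and 0.12 in the 6 stages, and that of all genes between -0.01 and 0.00.

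**Figure D4:**
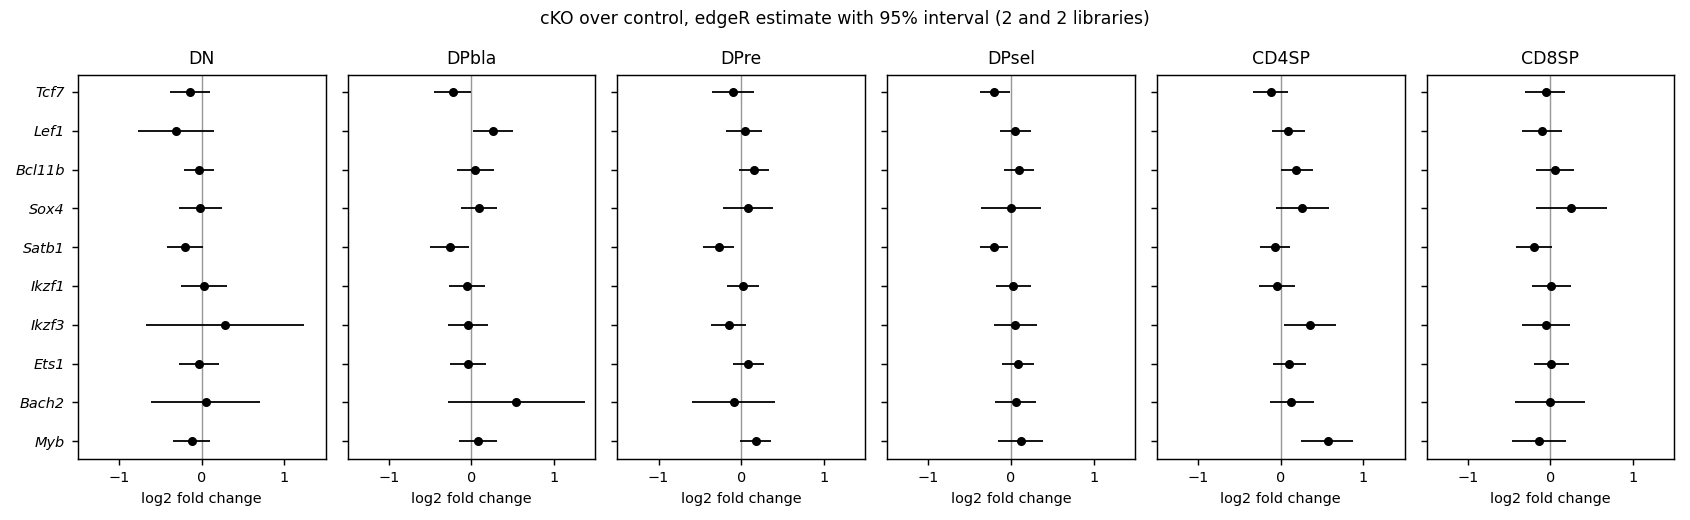
Log2 fold change (cKO over control) of each factor in each stage, with the 95% interval of the edgeR fit on 2 control and 2 cKO libraries. Satb1 lies below 0 in all 6 panels, Myb has its largest value in CD4SP (0.57), and no factor passed the test over all genes.

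After TMM scaling, Satb1 was lower in both cKO libraries than in both control libraries in all 6 stages. In DPre it was at 2943 and 2783 CPM in control 1 and 2 and at 2287 and 2432 CPM in cKO 1 and 2, a log2 fold change of -0.27 (SE 0.09, 95% interval -0.46 to -0.09, edgeR, adjusted p = 0.146). In DPsel control libraries had 2948 and 3010 CPM and cKO libraries 2476 and 2696 CPM (edgeR log2 fold change -0.21 ± 0.08 SE, adjusted p = 0.433). The log2 fold change was -0.20 in DN, -0.26 in DPbla and -0.20 in CD8SP. In CD4SP it was -0.07, with 1451 and 1418 CPM against 1333 and 1407 CPM, the closest of the 6. Without TMM scaling the same CD4SP cells had 1324 and 1262 CPM in control and 1218 and 1295 CPM in cKO, so the genotypes overlapped there. Of the 7992 genes tested in every stage, 0.651% were lower in both cKO libraries in all 6 stages. The thinned share of cells with a Satb1 UMI was 42.2% in DN and 47.4% in CD8SP, neither of them above erythroid cells beyond counting error, though CD8SP was above B cells. Satb1 was also lower in both cKO libraries in 12 of the 13 clusters taken singly, in plain CPM. DPre cluster 1 had 3647 and 3467 CPM in control and 2770 and 3051 CPM in cKO. DPre cluster 2 had 3455 and 3165 against 2553 and 2733 CPM. The exception was cluster 6, which is the whole CD4SP stage. The clusters are parts of the same 4 libraries and not further replicates. The share of all genes lower in as many clusters was not computed. When each cluster was given the same weight in every library, the log2 fold change was -0.21 in DPbla, -0.26 in DPre and -0.22 in DPsel. Its direction was the same in every alternative run, but the call was not: the adjusted p in DPre ranged from 0.00827 to 0.628 over the alternatives, and without cKO 2 it was 0.0139 (edgeR). The lowest value came from the fit with replicate number as a block, which called Satb1 in DPbla, DPre and DPsel (adjusted p = 0.0362, 0.00827 and 0.0454, edgeR).

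**Figure D5:**
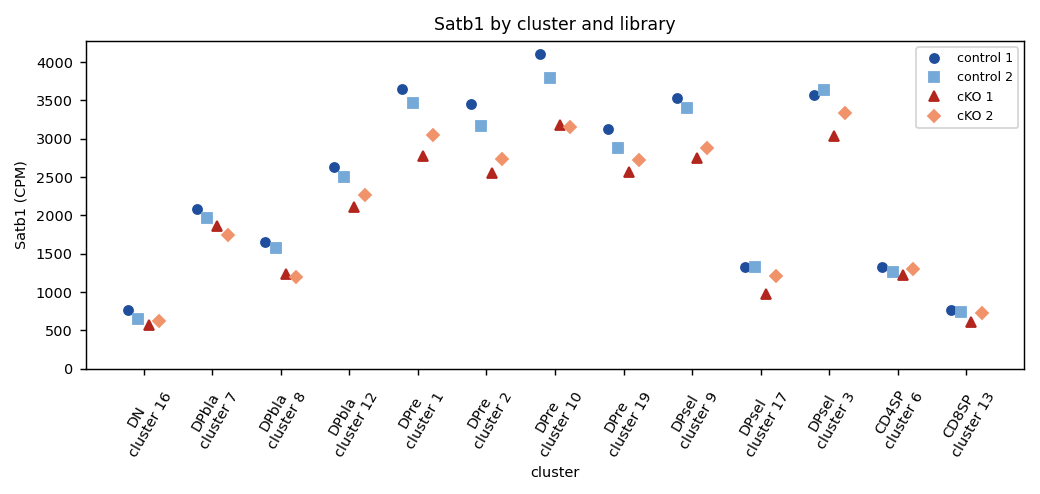
Satb1 level (plain CPM without TMM scaling, linear axis from 0) in each of the 13 clusters, with 1 point per library. Both cKO libraries lie below both control libraries in 12 of the 13 clusters, the exception being CD4SP cluster 6. All clusters are cut from the same 4 libraries.

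Erythroid transcripts moved with genotype as well. The summed level of 6 erythroid markers was 16.4 to 20.9 plain CPM in control and 28.5 to 43.1 CPM in cKO in DPre, and it was higher in both cKO libraries in all 6 stages, up to 498 CPM in 1 cKO library in DN. The 4 hemoglobin genes made up at least 98.8% of these sums, with Alas2 at 0 in DN, DPbla, DPre and CD4SP. Their part in the differences of the factors was not tested.

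Tcf7 had lower cKO means in all 6 stages, and its libraries were apart in 2 of them. In DPbla it was at 1206 and 1148 CPM in control and 990 and 1026 CPM in cKO (log2 fold change -0.22, SE 0.11, adjusted p = 0.327, edgeR). In DPsel control libraries had 898 and 828 CPM and cKO libraries 741 and 765 CPM (edgeR log2 fold change -0.20 ± 0.09 SE, adjusted p = 0.538). Both groups were apart in these stages, but in DPre control 2 (998 CPM) lay below cKO 1 (1128 CPM). The 95% intervals reached down to 0.734 times the control level in DPbla and 0.767 times in DPsel. Lef1 was higher in both cKO libraries in DPbla, with 161 and 159 CPM in control and 209 and 174 CPM in cKO (log2 fold change 0.26, SE 0.11, adjusted p = 0.262, edgeR). Its thinned share of DPbla cells was not above that of MPS-like cells, and the part of free RNA in this difference was not tested. In DN, where the same held for the share, its fitted value was -0.31 (SE 0.21).

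Myb in CD4SP had the largest fitted difference and the lowest adjusted p among the 60 pairs of factor and stage. CD4SP cells of control 1 and 2 had 68.9 and 53.0 CPM and those of cKO 1 and 2 had 95 and 84.9 CPM, from 117 to 197 UMIs per library (log2 fold change 0.57, SE 0.16, adjusted p = 0.130, edgeR). Both cKO libraries were above both controls. Without control 1 the log2 fold change was 0.76. Of the alternatives that kept all 4 libraries, only the fit with replicate number as a block called Myb in CD4SP (adjusted p = 0.0419, edgeR). The labels do not give that pairing. The thinned share of CD4SP cells with a Myb UMI was at background. The summed level of 7 MPS markers in CD4SP was 163 to 185 CPM in control and 222 to 229 CPM in cKO (plain CPM). The part of free RNA in the Myb difference was not tested. In CD8SP, where the same marker sum was 200 to 220 CPM in control and 265 to 371 CPM in cKO, the Myb libraries lay the other way round, at 77.0 and 76.6 CPM in control and 68.3 and 73.3 CPM in cKO (log2 fold change -0.14, SE 0.15).

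Ikzf3 was higher in both cKO libraries in CD4SP, with 58.4 and 75.6 CPM in control and 81.5 and 91.0 CPM in cKO (log2 fold change 0.35, SE 0.15, adjusted p = 0.565, edgeR). Sox4 in CD4SP had 230 and 412 CPM in control and 343 and 432 CPM in cKO (log2 fold change 0.26, SE 0.16, adjusted p = 0.741, edgeR). Its control libraries differed from each other more than the groups did. Without control 2 the Sox4 difference was 0.75 in CD4SP (adjusted p = 0.00113, edgeR) and 0.68 in CD8SP (adjusted p = 0.0182, edgeR), so these calls rest on control 1 alone, whose spread was taken to be that of the cKO libraries. The share of CD8SP cells with a Sox4 UMI was at background. Bcl11b was higher in both cKO libraries in 4 stages, in DPre with 1348 and 1263 CPM in control and 1465 and 1437 CPM in cKO (log2 fold change 0.16, SE 0.09, adjusted p = 0.425, edgeR). In CD8SP, also counted, control libraries had 493 and 490 CPM and cKO libraries 494 and 541 CPM. The stages share the same libraries, and the share of all genes higher in as many stages was not computed.

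Ikzf1 and Ets1 had the smallest genotype differences. The Ikzf1 log2 fold changes lay between -0.06 and 0.03, and the interval in DPre allowed 0.891 to 1.16 times the control level. Those of Ets1 lay between -0.04 and 0.10, with an interval of 0.932 to 1.21 times in DPre. Changes of a size inside these intervals are not excluded with 2 libraries per genotype, and the smallest change that could be called was not computed. The widest intervals belonged to Bach2 in DPbla, from 0.818 to 2.58 times, and Ikzf3 in DN, from 0.625 to 2.37 times, both resting on low counts.

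The ranges of the 2 genotypes were separate for 1 of the 10 factors in DN, against 37.8% of all genes tested. In DPbla they were separate for 5 factors (46.5% of genes) and in DPre for 6 (45.1%). In DPsel this held for 3 factors (38.3% of genes), in CD4SP for 6 (36.7%) and in CD8SP for 5 (36.9%). With 10 factors, these shares lie on both sides of the background. To test whether a genotype difference varied with stage, all 24 sums were fitted in one model with a stage-by-genotype term. Library was a block in this model, since the stages of a library come from the same mouse. No factor was called (edgeR), against 2.78% of 11615 genes. The lowest values were those of Myb (adjusted p = 0.282), Lef1 (0.287) and Ikzf3 (0.309). At an unadjusted p under 0.05 these 3 factors stood beside 12.2% of all genes.

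The partners and relatives of the factors were examined in the same fits. Among 25 partner factors of T-lineage identity, Runx3, the Runt-domain factor of the CD8 lineage, rose in DPbla and DPre and Tle1, a Groucho-type corepressor, fell in DPre. Runx3 was at 8.87 and 13.2 CPM in control and 22.6 and 24.6 CPM in cKO in DPbla (log2 fold change 1.07, SE 0.19, adjusted p = 0.00794, edgeR). In DPre its control libraries had 8.82 and 7.15 CPM and its cKO libraries 15.5 and 15.1 CPM (0.96, SE 0.17, adjusted p = 0.0181, edgeR). These levels were low beside those of CD8SP cells, where Runx3 was at 262 to 318 CPM and did not pass the test. Tle1 had 12.6 and 9.49 CPM in control and 5.28 and 5.6 CPM in cKO in DPre (-1.0, SE 0.21, adjusted p = 0.0360, edgeR). Of the partner factors tested, 24 in DPbla and 24 in DPre, no other passed, and none of the 23 to 25 tested in the other 4 stages did. Their median log2 fold change was between 0.00 and 0.12 in the 6 stages. The Runx3 call in DPbla ended without cKO 1 (adjusted p = 0.247, edgeR), without cKO 2 (0.337), at a mitochondrial limit of 5% (0.0735) and with UMI outliers kept (0.0537), at log2 fold changes of 1.13, 1.01, 1.02 and 0.79. In DPre the Runx3 call ended at the 5% limit (adjusted p = 0.11, log2 fold change 0.93, edgeR). That of Tle1 ended without control 1 (adjusted p = 0.0647, edgeR), at the 5% limit (0.103), with equal cluster shares (0.0989) and with DESeq2 (0.0612), at log2 fold changes of -0.80, -1.25, -0.84 and -1.01.

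Among 15 paralogs of the factors, Ikzf2, which encodes Helios of the Ikaros family, rose in DPbla and DPre. In DPbla it was at 90.3 and 93.0 CPM in control and 156 and 175 CPM in cKO (log2 fold change 0.85, SE 0.11, adjusted p = 0.00124, edgeR). In DPre it was at 69.7 and 67.9 CPM in control and 136 and 136 CPM in cKO (0.99, SE 0.10, adjusted p = 0.000497, edgeR). In the same 2 stages its relatives Ikzf1 and Ikzf3 had log2 fold changes of -0.06 and -0.04 in DPbla and 0.02 and -0.15 in DPre, none of them called. Without cKO 1 or cKO 2 the DPbla call ended (adjusted p = 0.128 and 0.216, edgeR) at log2 fold changes of 0.93 and 0.77, and with UMI outliers kept it also ended at a log2 fold change of 0.45 (0.111), while the DPre call was kept in all 13 alternatives. None of the other paralogs, 7 to 10 of which were tested per stage, passed. Of 12 progenitor factors that should fade at commitment, such as Spi1 and Lyl1, 5 could be tested in DN, 3 in DPre, 1 in DPsel and 0 in the other stages, and none passed. Of 22 proliferation genes taken from the study, which used these libraries, and holding markers by which DPbla was named, 1 rose in DPre and in DPsel, the topoisomerase gene Top2a, and none fell. The median log2 fold change of this list was 0.67 in DN, where 17 of the 18 tested were fitted higher, and -0.03 in DPbla, with 11 of 22 higher. It was 0.30 and 0.22 in DPre and DPsel (20 and 19 of 22 higher), and 0.19 and 0.26 in CD4SP and CD8SP (11 of 16 and 15 of 21 higher), against -0.01 to 0.00 for all genes. Top2a was at 43.4 and 35.5 CPM in control and 69.1 and 67.1 CPM in cKO in DPre (0.80, SE 0.12, adjusted p = 0.00676, edgeR) and at 30.2 and 32.8 against 57.8 and 59.6 CPM in DPsel (0.89, SE 0.14, adjusted p = 0.0162, edgeR). The DPsel call of Top2a ended without control 1 (adjusted p = 0.233, log2 fold change 0.83, edgeR), without control 2 (0.426, 0.96) and at the 5% mitochondrial limit, where the log2 fold change was 0.55 (0.397).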

How the data were processed

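Thymocytes were profiled by droplet sequencing (10x Genomics 3′ kit, version 3), 1 library per mouse. The authors counted UMIs per gene and cell with Cell Ranger 6.1.1 on GRCm38 and deposited raw counts, without normalization or pooling. The study describes 2 pairs of control and cKO mice and littermate controls, but the labels do not say that equal replicate numbers mark a pair, and p-values measure the spread between 2 mice per genotype.

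As in the study, cells with under 200 genes, in the top or bottom 2.5% of UMIs or over 10% mitochondrial UMIs were left out. The 5% with the highest Scrublet doublet score were removed (297 to 633 per library; scanpy 1.11.5). The 3000 most variable genes without the 10 factors were reduced to 30 components and clustered (leidenalg 0.10.2, resolution 1, 22 clusters). A cluster took the name of its best marker list and stayed unnamed when the score was under 1, under 3 markers were detected, another class was mixed in, another class led its top 10 genes or its median UMI count was under 1/3 of its libraries' (the last rules were set after the clusters were seen). Stage names are rebuilt, and may differ from the study's for that reason.

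Counts were summed per library and stage and tested with edgeR 4.0.16 (R 4.3.3): TMM factors, filterByExpr, a quasi-likelihood F test with genotype as the single term, and Benjamini-Hochberg adjustment over all genes of a stage. Alternatives included DESeq2 1.42.0. The scripts were tested on simulated data. The factors and gene lists were chosen with earlier results of these data known. Named genes were all 10 factors, Tox4, list genes called in a stage and the 3 genes most like each factor. The depth is that of each stage sum, 659735 UMIs (control 1, DN) to 12783652 UMIs (cKO 2, DPre). The level of 1 marker gene is not reported here.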

Additional observations from a re-analysis of the deposited data

Results flagged for a closer look

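The following list genes, named because they passed this test, had a genotype difference (cKO over control) that varied between the stages in the stage-by-genotype model (edgeR, adjusted p over 11615 genes). Ikzf2 (adjusted p = 1.26e-05, edgeR) ranged from a log2 fold change of 0.02 in DN to 0.99 in DPre, and Runx3 (adjusted p = 0.00808) from 0.14 in CD8SP to 1.07 in DPbla. Ctcf, the insulator protein (adjusted p = 0.0249, edgeR), ranged from -0.20 in DPbla to 0.25 in DN, and was called in neither stage on its own.

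Of the proliferation genes, 8 of 22 tested varied with stage, against 2.78% of all genes. With a mitochondrial limit of 5%, where no DN cluster could be named and the model held 5 stages, the term called 36 genes in place of 323, and the part of each change was not separated. Of these 8 genes, 5 (Mki67, Top2a, Mcm3, Ccnb1 and Pcna) are markers by which DPbla was named, so their level in DPbla, and thus this term, depends on the naming, and no order of the stages is read from it. The fitted log2 fold change in DPbla is followed by the highest among the stages for Plk1 (adjusted p = 0.00126, edgeR; -0.21 in DPbla, 1.06 in CD8SP), Hmgb2 (0.00513; -0.20, and 0.67 in DN), Mki67 (0.00571; 0.18, and 1.05 in CD8SP), Top2a (0.00655; 0.01, and 1.03 in DN), Pcna (0.0242; 0.03, and 0.83 in DN) and Bub1 (0.0261; -0.16, and 1.06 in DPre). Ccnb1 (adjusted p = 0.0143, edgeR) ranged from -0.70 in CD4SP to 1.28 in DN, and Mcm3 (0.0176) from -0.03 in CD8SP to 1.11 in DN.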

How the results depend on the processing

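The 10 factors were called in no stage by DESeq2, with DESeq2 size factors, with the factors allowed among the clustering genes, without removal of UMI outliers, with a mitochondrial limit of 5% (where no DN cluster could be named) or with equal cluster shares. With replicate number as a block (replicate block), which the labels do not give as a pairing, 1 factor was called in DPbla, 1 in DPre and 1 in DPsel (Satb1, adjusted p = 0.0362, 0.00827 and 0.0454, edgeR) and 1 in CD4SP (Myb, 0.0419). No filter on low counts gave 1 factor in DPre (Satb1, 0.0210) and 2 in the stage-by-genotype term (Lef1, 0.0314, and Myb, 0.0371). Leaving out 1 library gave 0 to 1 factor in DPre, CD4SP and CD8SP and 0 in the other stages.

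Counts of all called genes moved far more, and the cause was not tested. Against 1, 286, 155, 18, 34 and 0 genes in DN, DPbla, DPre, DPsel, CD4SP and CD8SP, the block gave 128, 1114, 1065, 263, 84 and 151, and no filter 75, 585, 590, 145, 81 and 113. Leaving out 1 library gave 27 to 79, 1 to 516, 278 to 314, 0 to 38, 35 to 78 and 1 to 148. In DPbla 1 gene was left without cKO 1 or without cKO 2 and 516 without control 2, and in DPsel 0 without control 2. Keeping UMI outliers gave 0 in DN, 39 in DPbla, 22 in CD4SP and 43 in CD8SP. A mitochondrial limit of 5% gave 27 in DPbla and 21 in CD4SP, DESeq2 11 in CD4SP, equal cluster shares 160 in DPbla and 28 in DPsel, and the factors among the clustering genes 314 in DPre and 4 in DPsel. The stage-by-genotype term called 323 genes, 611 with no filter, 36 with the 5% limit (a model that also lacked DN) and 113 to 301 without 1 library. Counting the low-UMI cluster as DPbla or the unnamed Cd5 cluster as DPre, both chosen after the clusters were seen, gave 256 and 231.

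Of 310 alternative values of factors with separate groups, 6 reversed, all small: Bcl11b in CD8SP to -0.06 with the 5% limit and to -0.02 without cKO 2 (-0.02 to 0.13 over the libraries left out), Ikzf1 in DPre to -0.03 with that limit and 0.00 with equal cluster shares, Ikzf3 in CD8SP to 0.03 with UMI outliers kept, and Ets1 in CD8SP to -0.01 without cKO 2 (-0.01 to 0.04). Of the alternative values of called list genes, 75 stayed past the threshold and 15 did not, all in the same direction. Of 470 alternative stage ratios 8 changed sign, among them CD4SP over CD8SP for Sox4, and the largest shift was 1.07 on the log2 scale (Myb, CD4SP over CD8SP, to -1.07 with the 5% limit). Other ratios that moved by over 1.5 times were, with UMI outliers kept, DPbla over DN for Lef1 (0.06 to 0.85) and Ikzf3 (2.68 to 3.39), CD8SP over DPsel for Sox4 (-1.97 to -2.61) and Myb (-1.81 to -2.50) and CD4SP over CD8SP for Sox4 (0.77 to 1.56), and, with the 5% limit, CD8SP over DPsel (to -1.09) and CD4SP over CD8SP (to -0.18) for Sox4 and, for Bach2, DPre over DPbla (1.06 to 1.65) and DPsel over DPre (4.68 to 3.95). Low counts limit Bach2 in DN and DPbla and Ikzf3 in DN (7 to 61 UMIs per library).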

Other observations

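The cells left without a stage name also carried the factors. An unnamed cluster of 2442 cells, led by Cd5, Tox and Egr1 and scoring for both DPre and DPsel, had 672 CPM of Myb, 1281 CPM of Sox4, 3340 CPM of Satb1, 388 CPM of Lef1 and 17.5 CPM of Bach2 (means of 4 libraries). Its Lef1 and Bach2 means lay between those of DPre clusters 1 and 2 and that of DPsel cluster 9, while its Myb mean was close to the DPre clusters. Satb1 was at 3818 and 3545 CPM in control and 2940 and 3059 CPM in cKO there. The γδ T cell cluster (82 cells, 15 to 28 per library) had 1539 CPM of Sox4 (1116 to 1753 CPM) and 570 CPM of Satb1 (408 to 779 CPM).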
